A study of Mus musculus with 8 samples.

Results

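The genes described here form the uterine Indian hedgehog axis, taken as 8 named genes of the 19505 genes measured: Gata2, Sox17, Ihh, Smo, Ptch1, Gli1, Nr2f2 and Hand2. They were chosen by name for their place in the pathway, with earlier results of these data known. Each is represented by the probe set that carries its symbol, 1 per gene. Expression was measured on arrays in uteri of 8 wildtype C57BL/6J mice, an inbred strain, collected in the morning at day 4.5 of pseudopregnancy, 1 mouse per array. Pseudopregnancy follows mating with a vasectomized male and gives the hormone setting of early pregnancy without embryos. The 4 exposed mice inhaled e-cigarette aerosol in a whole-body chamber; its liquid was a 55:45 mix of propylene glycol with vegetable glycerin, unflavoured, carrying nicotine at 24 mg/mL. Sessions lasted 3 hours with 2 puffs each minute and an atomizer temperature of 245 °C. Exposure began 4 weeks ahead of mating, on 5 days of each week, and went on daily until the uterus was taken; the 4 sham mice had room air. No source used here gives the ages of the mice, and without embryos signals from a blastocyst are not part of this model. With 4 arrays a group, precision is limited throughout.

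In the receptive uterus, progesterone acting through its receptor in the epithelium raises the secreted ligand Indian hedgehog, and GATA2 and SOX17 are epithelial transcription factors known to act upstream of it. The ligand crosses to the stroma, binds Patched 1 and thereby releases Smoothened, which activates GLI transcription factors, with Gli1 and Ptch1 themselves known targets. Stromal COUP-TFII, encoded by Nr2f2, lies downstream, and HAND2 is a progesterone-dependent stromal factor that holds down fibroblast growth factors which would otherwise keep the epithelium dividing. Mice lacking Ihh, Nr2f2, Hand2, Gata2 or Sox17 in the uterus are known to fail at implantation.

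The promoters of 3 members are shown because they belong to the ligand, its receptor and target, and the stromal end of the axis. Each run holds the 250 bases before the RefSeq start of the gene (build GRCm38.p6), 5′ to 3′ on the gene's strand. Capitals mark letters matching a GATA motif (AGATAA), a SOX motif (ATTGTT), a GLI core (CCACCCA), a nuclear receptor motif (AGGTCA), a HAND E-box (CATCTG) or a GC box (GGGCGG), on either strand.
Ihh, chr1:74951673-74951922, minus strand: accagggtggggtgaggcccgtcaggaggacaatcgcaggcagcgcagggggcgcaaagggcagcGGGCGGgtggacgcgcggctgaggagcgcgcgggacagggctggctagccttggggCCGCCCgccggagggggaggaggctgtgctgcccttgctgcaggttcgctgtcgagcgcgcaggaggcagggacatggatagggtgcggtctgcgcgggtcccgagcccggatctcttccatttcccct
Ptch1, chr13:63565736-63565985, minus strand: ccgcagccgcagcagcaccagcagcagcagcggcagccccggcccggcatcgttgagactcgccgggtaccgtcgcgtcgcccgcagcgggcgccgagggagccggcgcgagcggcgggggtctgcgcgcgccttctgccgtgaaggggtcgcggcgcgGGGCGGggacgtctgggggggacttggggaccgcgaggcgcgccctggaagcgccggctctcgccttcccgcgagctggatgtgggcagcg
Hand2, chr8:57320733-57320982, plus strand: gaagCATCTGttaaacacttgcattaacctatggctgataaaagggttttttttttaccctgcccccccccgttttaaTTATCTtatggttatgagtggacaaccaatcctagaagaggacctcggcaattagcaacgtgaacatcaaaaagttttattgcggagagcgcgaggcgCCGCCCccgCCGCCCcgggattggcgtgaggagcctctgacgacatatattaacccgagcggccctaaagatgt
Of the 8 genes, 6 are in the RefSeq promoter table, Gata2 with a pair of starts, and Gli1 and Sox17 were not matched. The Ihh and Ptch1 windows are rich in G and C (72.0% and 78.4%) and hold GC boxes alone among these motifs, 185 and 129 bases before the Ihh start and 91 before that of Ptch1. The Hand2 window (49.2% G and C) holds a GATA match 172 bases and an E-box 246 bases before the start, beside GC boxes at 74 and 65. Such matches occur in 9.99% (GATA), 14.4% (E-box) and 32.7% (GC box) of all 32851 promoter windows of this length. SOX, GLI and nuclear receptor letters occur in 9.42%, 8.11% and 14% of them. They were not found in the windows of Ihh, Ptch1, Smo, Nr2f2, Hand2 or Gata2, which says only that these letters are absent there.

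No member of the axis passed the test over the whole array. The means of Sox17, Ihh, Gata2, Gli1 and Ptch1 were 1.52-fold, 1.32-fold, 1.26-fold, 1.24-fold and 1.10-fold lower in exposed uteri, while those of Smo, Nr2f2 and Hand2 were within 1.04-fold of sham. The lower means thus included both epithelial factors with the ligand and the downstream targets Gli1 and Ptch1. In all, 6 members had lower and 2 higher means, with a median difference of -0.22 on the log2 scale beside 0.0014 over all probe sets. With limma and Benjamini-Hochberg adjustment over 22206 probe sets, 0 of 8 members were called at an adjusted p of 0.05, as was 0.0% of the array. At an unadjusted p under 0.05, 1 of 8 members (Sox17) was called, against 5.42% of all probe sets and 2.5% in the lower direction. The groups overlapped for all 8 members, whereas 2.73% of probe sets had groups without overlap (1.35% lower and 1.38% higher in exposed mice). That count of 1 was 3 without exposed mouse 1 (Ihh, Gata2 and Sox17), 1 without exposed mouse 3, and 0 without any other single mouse. Under limma's robust moderation with a trend the member called was Ihh (unadjusted p = 0.0473) and no longer Sox17 (unadjusted p = 0.0607), both with an adjusted p = 0.849.

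**Figure D1:**
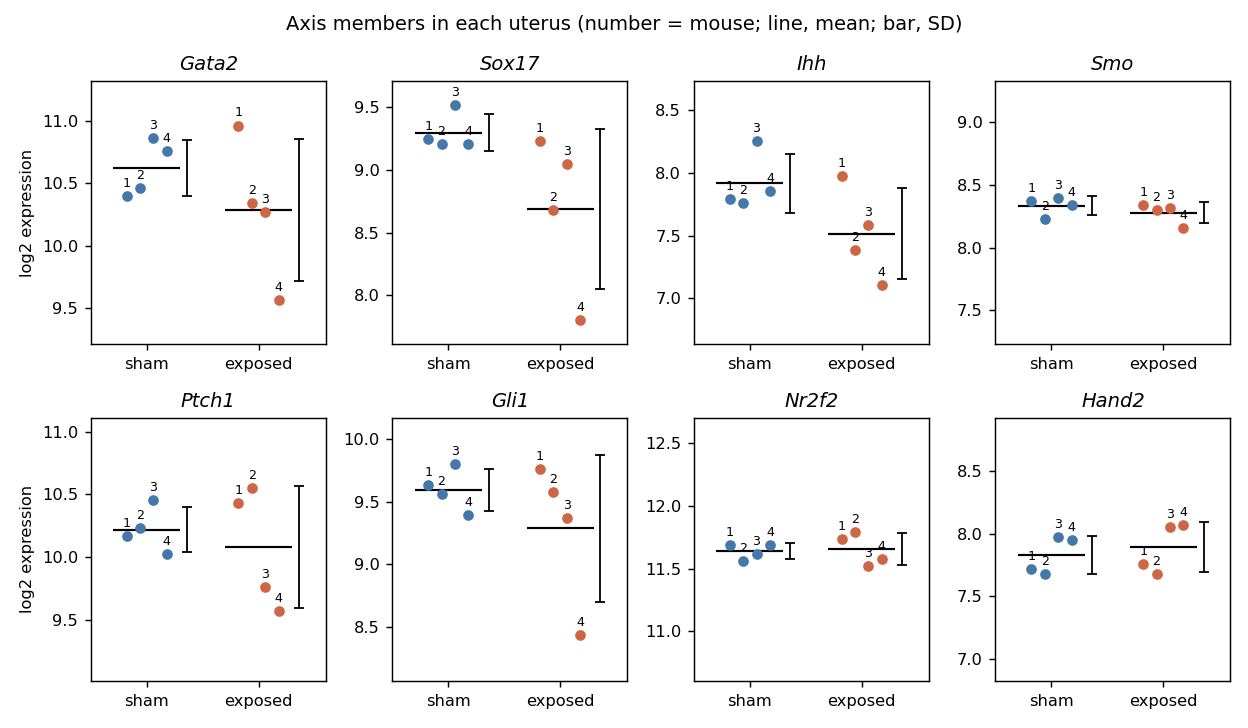
Log2 expression of the 8 members (y axes, each spanning the same number of log2 units) in the 4 sham and 4 exposed mice; numbers name the mouse, horizontal lines are group means and bars are SDs. Exposed mouse 4 is the lowest of the 8 mice in the panels of Gata2, Sox17, Ihh, Smo, Ptch1 and Gli1, and the highest in that of Hand2.

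Values are log2 expression, with group values as mean ± SD over 4 mice. Sox17, an SRY-box factor of uterine epithelium and of arteries, read 9.25, 9.21, 9.52 and 9.21 in sham mice 1 to 4, and 9.23, 8.68, 9.05 and 7.80 in exposed mice 1 to 4. Exposed mice 2, 3 and 4 lay below every sham mouse, and exposed mouse 1 lay among them. The difference was -0.61 ± 0.26 (SE), with a 95% interval of -1.19 to -0.021 (limma adjusted p = 0.838, exact two-sided permutation p = 0.0857, where 0.0286 is the smallest that 4 against 4 allows). Without exposed mouse 4 it was -0.31 ± 0.14 (SE).

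Gata2, a zinc finger factor that works with the progesterone receptor, read 10.40, 10.46, 10.86 and 10.76 in sham mice and 10.96, 10.34, 10.27 and 9.57 in exposed mice. Exposed mouse 1 was the highest of all 8 and exposed mouse 4 the lowest. The difference of -0.33 ± 0.25 (SE) had an interval of -0.88 to 0.22 (limma adjusted p = 0.845, exact permutation p = 0.343), and without exposed mouse 4 it was -0.095.

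Ihh, the ligand, read 7.79, 7.76, 8.26 and 7.86 in sham mice and 7.98, 7.39, 7.59 and 7.11 in exposed mice. As for Sox17, exposed mice 2, 3 and 4 were below every sham mouse while exposed mouse 1 was not. The difference of -0.40 ± 0.18 (SE) had an interval of -0.81 to 0.0043 (limma adjusted p = 0.838, exact permutation p = 0.143). It was -0.27 without exposed mouse 4 and -0.55 without exposed mouse 1.

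Smo, the signal-passing membrane protein, varied least of the hedgehog components. It read 8.37, 8.23, 8.40 and 8.34 in sham and 8.34, 8.30, 8.32 and 8.16 in exposed mice, with a difference of -0.054 ± 0.085 (SE). The groups overlapped almost fully, and the interval was -0.24 to 0.13 (limma adjusted p = 0.914, exact permutation p = 0.371).

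Ptch1, the receptor, read 10.17, 10.23, 10.45 and 10.02 in sham mice and 10.43, 10.55, 9.76 and 9.57 in exposed mice. The exposed mice split, mouse 2 being the highest of all 8 and mice 3 and 4 lying below every sham mouse. Its difference was -0.14 ± 0.21 (SE, interval -0.61 to 0.33, limma adjusted p = 0.912, exact permutation p = 0.600), and 0.031 without exposed mouse 4.

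Gli1, the transcription factor commonly used to read hedgehog activity, was 9.63, 9.56, 9.80 and 9.39 in sham mice and 9.76, 9.58, 9.37 and 8.44 in exposed mice. Exposed mouse 3 was just below the sham range and exposed mouse 4 far below it (-1.15 relative to the sham mean). The group difference of -0.31 ± 0.25 (SE, interval -0.86 to 0.24, limma adjusted p = 0.852, exact permutation p = 0.371) was -0.025 without it. Relative to the sham mean, exposed mouse 2 had Ihh at -0.53 but Gli1 at -0.02 and Ptch1 at 0.33.

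The stromal transcription factors had means near sham. Nr2f2 read 11.69, 11.56, 11.62 and 11.69 in sham mice and 11.74, 11.79, 11.52 and 11.58 in exposed mice. Its difference was 0.018 ± 0.091 (SE), with an interval of -0.19 to 0.22 (limma adjusted p = 0.983, exact permutation p = 0.743), which does not hold a change as large as the point estimates of Ihh or Sox17. Hand2 read 7.72, 7.68, 7.97 and 7.95 in sham mice and 7.76, 7.68, 8.05 and 8.07 in exposed mice, with exposed mice 3 and 4 at the top. Its difference was 0.059 ± 0.12 (SE, interval -0.21 to 0.33, limma adjusted p = 0.940, exact permutation p = 0.571). Whether the differences of Sox17 or Ihh exceed those of Nr2f2 or Hand2 was not tested.

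**Figure D2:**
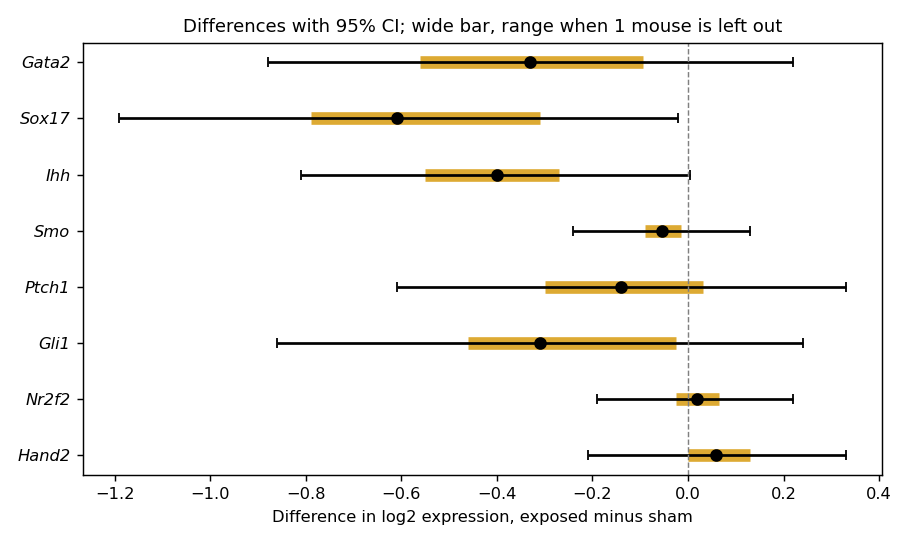
Difference in mean log2 expression, exposed minus sham (x axis), for each member, with limma's 95% interval as a thin line and the range over the 8 fits that leave out 1 mouse as a wide bar. The interval excludes 0 for Sox17 alone (-1.19 to -0.021), and the leave-out ranges of Ptch1 (-0.30 to 0.031) and Nr2f2 (-0.026 to 0.065) cross 0.

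The spread of the members was wider among exposed mice. The SD between mice was larger in the exposed group for all 8 members. It was 0.64 against 0.15 for Sox17, 0.59 against 0.17 for Gli1, and 0.57 against 0.22 for Gata2. For Smo (0.081 against 0.075) and Hand2 (0.2 against 0.15) the SDs were close. The share of all probe sets with a larger SD in exposed mice was not counted, so a spread particular to the members is not shown. Exposed mouse 4 was the lowest of all mice for 6 of 8 members. Its array also correlated least with the others, at a mean of 0.977, followed by exposed mouse 2 at 0.982, and the remaining arrays lay at 0.986 to 0.987. With exposed mice 2 and 4 both left out, which was added after seeing the data, the differences were -0.14 for Ihh, -0.16 for Sox17, -0.0046 for Gata2 and -0.029 for Gli1.

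Levels of neighbouring members were next compared across the 8 mice, over 10 pairs. Ihh rose and fell together with Sox17 and Gata2. Pearson's r was 0.92 with Sox17 (exact permutation p = 0.000248, adjusted p = 0.00248) and 0.91 with Gata2 (exact p = 0.00181, adjusted p = 0.00678). Spearman's rho was 0.88 (exact p = 0.00724, adjusted p = 0.0362) and 0.93 (exact p = 0.00223, adjusted p = 0.0223). Without the 2 mice farthest from the median of the upstream gene, r was 0.94 for Sox17 and 0.86 for Gata2, and as deviations from the group means it was 0.87 and 0.91. Gata2 and Sox17 had an r of 0.89 (exact p = 0.00605, adjusted p = 0.0151) and a rho of 0.76 (exact p = 0.0368, adjusted p = 0.0613), with an r of 0.71 without the 2 farthest mice. Of 9763 other genes at or above the median level, 0.942% matched Ihh at least as well as Sox17 did and 1.37% as well as Gata2 did. In the other direction, 2.48% matched Sox17 as well as Ihh did, and 1.37% matched Gata2 as well as Ihh did. Ihh, Sox17 and in part Gata2 are epithelial genes read here in whole uterus. Whether epithelial content has a part in these r values was not tested.

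Downstream of the ligand, r with Ihh was lower than for Sox17 and Gata2 and changed more when a single mouse was left out. Ihh and Gli1 had an r of 0.80 (exact p = 0.0106, adjusted p = 0.0211) and a rho of 0.76 (exact p = 0.0368, adjusted p = 0.0613). Ihh and Smo had an r of 0.78 (exact p = 0.0218, adjusted p = 0.0363) and a rho of 0.83 (exact p = 0.0154, adjusted p = 0.0513). Without exposed mouse 4 and sham mouse 3 these r values were 0.33 and 0.28, and without exposed mouse 4 alone 0.60 and 0.55. Those mice hold the lowest and highest Ihh values. Leaving both out narrows the range of Ihh, so the fall in r does not show that the relations rest on them. Ihh and Ptch1 did not pass (r = 0.57, exact p = 0.138, adjusted p = 0.173; rho = 0.40, exact p = 0.327, adjusted p = 0.409), and r was -0.088 without the same 2 mice and 0.91 without exposed mouse 2. The targets Ptch1 and Gli1 went together with an r of 0.84 (exact p = 0.00203, adjusted p = 0.00678) and a rho of 0.81 (exact p = 0.0218, adjusted p = 0.0544), and an r of 0.68 without exposed mice 3 and 4. Ptch1 was matched as well as by Gli1 by 0.481% of genes, and Gli1 as well as by Ptch1 by 3.92%. Ihh was matched as well as by Gli1 by 7.63%, and Gli1 as well as by Ihh by 6.26%.

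No relation of Nr2f2 or Hand2 with the ligand was found, although 8 mice cannot exclude a moderate one. The r of Ihh was 0.097 with Nr2f2 (exact p = 0.820, adjusted p = 0.820; rho = 0.23, exact p = 0.589, adjusted p = 0.654; r = -0.018 without the 2 farthest mice). It was -0.15 with Hand2 (exact p = 0.720, adjusted p = 0.800; rho = -0.048, exact p = 0.935, adjusted p = 0.935; r = 0.041 without them). Nr2f2 and Hand2 leaned in opposite directions without passing (r = -0.58, exact p = 0.131, adjusted p = 0.173; rho = -0.55, exact p = 0.163, adjusted p = 0.233; r = -0.23 without the 2 farthest mice), and r was -0.89 without sham mouse 2 (exact p = 0.00992, adjusted p = 0.0169). In all, 6 of 10 pairs passed with Pearson's r and 2 with Spearman's rho. Without exposed mouse 4 alone 0 passed adjustment by Pearson's r, with r at 0.94 for Sox17 and Ihh, 0.82 for Gata2 and Ihh and 0.63 for Gata2 and Sox17. Smo and Gli1 then had r values of 0.55 and 0.60 with Ihh, and Ptch1 and Gli1 had 0.80. Without sham mouse 3 or without exposed mouse 1, 4 pairs passed.

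**Figure D3:**
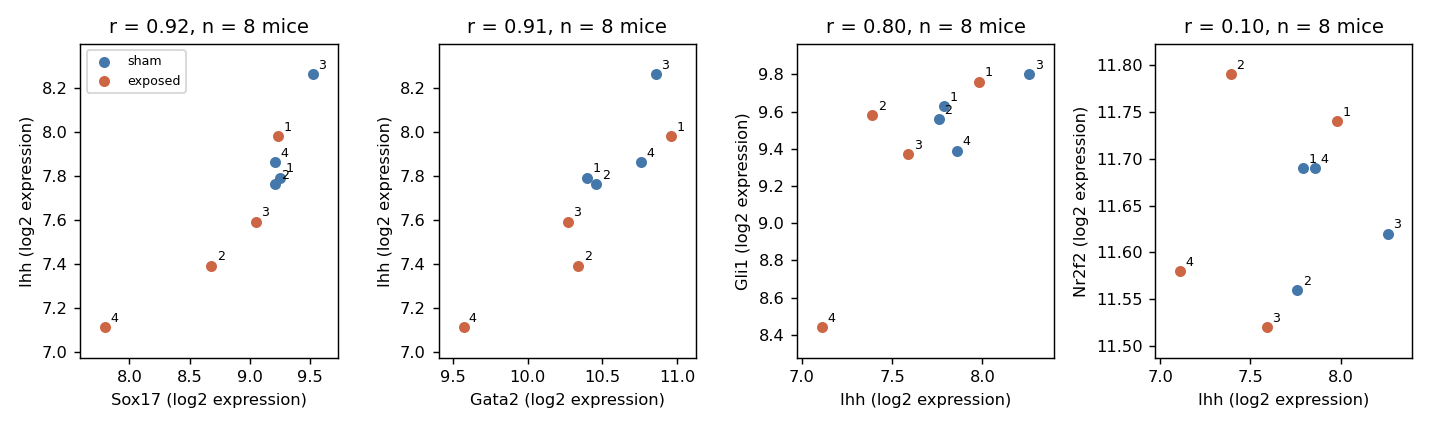
Log2 expression of one member against another in the 8 mice (blue, sham; orange, exposed; numbers name the mouse within its group). Ihh lies along a line with Sox17 (r = 0.92) and Gata2 (r = 0.91). Its r with Gli1 was 0.80, and 0.60 without exposed mouse 4. With Nr2f2 its r was 0.097.

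The genes most like each member were sought among 9765 named genes at or above the array median, by Pearson's r over the 8 mice and as a description. Closest to Ihh were Isoc1 (r = 0.978), Larp7 (0.978) and Gde1 (0.977). Closest to Sox17 were Tgfbrap1 (0.997), Trappc1 (0.995) and Anxa6 (0.991), and to Gata2 Ints14 (0.983), Mdk (0.977) and Psat1 (0.975). Gli1 lay closest to Vps28 (0.982), Polr2j (0.969) and Sf3b2 (0.961), and Ptch1 to Tm2d2 (0.957), Gtf2e1 (0.956) and Hnrnpc (0.950). Smo was most like Cox20 (0.963), Vangl2 (0.936) and Gcnt3 (0.928), Nr2f2 like Ap4m1 (0.971), Kptn (0.959) and Atm (0.944), and Hand2 like Sema4d (0.962), Usf2 (0.935) and Sec24b (0.922). An r over 0.9 was reached by 363 genes with Sox17, 169 with Ihh, 149 with Gata2 and 127 with Gli1, but by 19 with Smo, 12 with Ptch1, 9 with Nr2f2 and 5 with Hand2. The 4 members with many such partners are those in which exposed mouse 4 lay farthest from sham.

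The uterine origin of the samples was checked on Hoxa10, a homeobox gene of the uterus (11.17 ± 0.14 in sham, 11.06 ± 0.17 in exposed mice), and Pgr (10.47 ± 0.23 and 10.79 ± 0.42), both bright on every array. Because Ihh, Sox17 and in part Gata2 belong to the epithelium, epithelial markers were set beside them; in whole tissue, fewer cells of a type and less RNA per cell cannot be told apart. Of 14 luminal epithelium markers 11 had lower and 3 higher means in exposed mice, with a median difference of -0.37. At an unadjusted p under 0.05 with limma 3 of them were called, all lower, where 2.5% of the array was lower. After adjustment 0 were called (smallest adjusted p 0.838). Their mean level ran from 8.65 to 8.90 in sham mice and from 7.84 to 8.64 in exposed mice, lowest in exposed mouse 4. The 3 brightest were Cdh1 (10.98 ± 0.25 in sham, 10.75 ± 0.28 in exposed mice), Muc1 (10.07 ± 0.63 and 9.72 ± 0.37) and Cldn3 (9.85 ± 0.27 and 9.33 ± 0.60). Further genes of the list were named after their values were seen. The 3 lower at an unadjusted p under 0.05 with limma were Cldn7, Cldn4 and Krt8. Cldn7 differed by -0.49 ± 0.13 (SE) without overlap between groups, and Cldn4 by -0.58 ± 0.20. The 3 with higher means were Epcam, Krt18 and Wnt7a (0.072 ± 0.16). The keratins Krt8 and Krt19 differed by -0.39 ± 0.17 and -0.63 ± 0.39 (SE), with the lowest value of all 8 mice in exposed mouse 4 (8.44 and 6.93). Epcam, an adhesion protein, and the keratin Krt18 differed by 0.093 ± 0.17 and 0.12 ± 0.12, and read 8.90 and 9.18 in that mouse.

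Measured against the mean luminal marker of the same mouse, a comparison added after the data were seen, Ihh differed by -0.031 between groups (sham -0.85 ± 0.18, exposed -0.88 ± 0.22, exact permutation p = 0.83). The same measure gave 0.036 for Gata2 (1.85 ± 0.10 and 1.88 ± 0.30, exact permutation p = 0.886) and -0.24 for Sox17 (0.53 ± 0.15 and 0.29 ± 0.27, exact permutation p = 0.200). With the median marker in place of the mean, the differences were 0.0032, 0.070 and -0.20. The Ihh difference of -0.40 was close in size to that of the luminal markers as a group (-0.37). Of the 3 genes, Sox17 kept the largest difference relative to them. Whether epithelial content has a part in these differences was not tested. The luminal list holds progesterone-dependent genes such as Calb1 (-1.11 ± 0.57, SE), so it is not a plain count of epithelial cells.

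**Figure D4:**
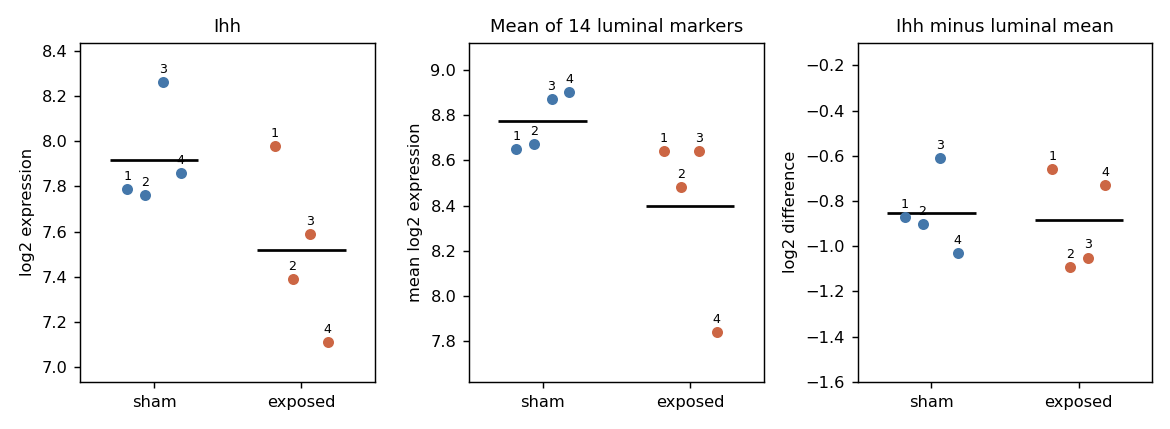
Ihh (left), the mean of 14 luminal epithelium markers (middle) and their difference (right) in each mouse, on log2 axes of equal length; lines are group means and numbers name the mouse. The groups' means differ by -0.40 for Ihh and -0.37 for the markers, and by -0.031 for Ihh relative to them.

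Other marker lists also varied between exposed mice. Proliferation genes averaged 7.64 to 8.03 in sham mice and 8.28, 7.13, 7.83 and 6.86 in exposed mice 1 to 4, with 14 of 14 means lower. Gland markers averaged 7.25 to 7.45 in sham mice and 7.04, 6.97, 7.83 and 8.57 in exposed mice, but their genes did not move together. In exposed mouse 4 the protease inhibitor gene Spink1 was the highest of all 8 mice (12.22), as were the protease genes Prss28 (12.64) and Prss29 (12.04), named after their values were seen. There the gland genes Cxcl15 (6.51), Ltf (6.27) and Foxa2 (7.16) were the lowest of all 8 mice, and over the list 6 of 10 means were lower, with a median difference of -0.078. Endothelial markers, relevant because Sox17, Gata2 and Nr2f2 are also vascular genes, averaged 8.30 to 8.84 in sham and 8.57 to 8.88 in exposed mice. Of these 13 genes, 12 had higher and 1 a lower mean, with a median difference of 0.14 and 0 at an unadjusted p under 0.05 with limma. Arterial markers averaged 7.22 to 7.28 and 7.21 to 7.50, with 7 higher and 3 lower means. Mast cell markers, a further site of Gata2, averaged 6.58 to 6.72 and 6.45 to 6.73, and the mean of the stroma markers differed by -0.088. Adipocyte markers averaged 5.84 to 6.14 in sham mice and 6.64, 6.85, 5.78 and 5.93 in exposed mice 1 to 4. Their 3 brightest genes did not move together in exposed mice 1 and 2. Fabp4, a fatty acid carrier, read 7.41 and 8.87 there (sham mean 5.64). Lpl read 8.03 and 7.92 (sham mean 8.01), and Lipe 7.17 and 7.24 (sham mean 7.47). Over the list, 6 means were higher and 3 lower. Smooth muscle markers had lower means for 11 of 12 genes and averaged 10.53 to 10.78 in sham and 10.24 to 10.70 in exposed mice, lowest in exposed mouse 2. The part of these lists, or of the luminal markers, in the differences of the members was not tested.

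The other genes of the pathway were taken from 8 lists holding 114 genes, of which 102 were measured. The lists were chosen with earlier results of these data known, so shares within them are not independent support. With limma, 0 of 102 passed adjustment over all probe sets. At an unadjusted p under 0.05 there were 11 (10.8%, against 5.42% of the array), 6 lower and 5 higher, where 2.5% of the array was lower and 2.91% higher. The count was 20 without exposed mouse 1. It was 7 without sham mouse 1, 6 without sham mouse 2 or sham mouse 3, and 5 without exposed mouse 4. Of the 11 genes, Gas1 alone kept an unadjusted p under 0.05 whichever single mouse was left out, and the other 10 lost it without at least 1 mouse. Groups did not overlap for 4 of the 102 genes (1 lower, 3 higher), against 2.73% of probe sets.

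Among 9 genes for hedgehog ligands and their release, 1 was lower at an unadjusted p under 0.05 and the median difference was -0.004. That gene, Scube2, encodes a secreted protein that helps free the lipid-bearing ligand from the cell. It read 6.85 to 7.01 in sham mice and 6.86, 5.67, 6.39 and 6.46 in exposed mice, a difference of -0.56 ± 0.21 (SE, limma adjusted p = 0.838). Without exposed mouse 2 it was -0.33, and without sham mouse 1 its unadjusted p was 0.0526 with limma. Shh, the sister ligand, was 6.68 ± 0.031 and 6.84 ± 0.25, with exposed mouse 4 at 7.19 (difference 0.16, and 0.043 without that mouse), and Disp1, which exports the ligand, differed by 0.14 ± 0.08.

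Of 6 receptors and co-receptors, 5 had lower means and 1 was lower at an unadjusted p under 0.05, with a median of -0.25. Gas1, a co-receptor that promotes ligand binding, read 8.94, 9.0, 8.87 and 9.04 in sham mice and 8.83, 8.42, 8.54 and 8.50 in exposed mice. All 4 exposed values lay below all 4 sham values, as for 1.35% of the array, and the difference of -0.39 ± 0.11 (SE) held between -0.48 and -0.34 whichever single mouse was left out (limma adjusted p = 0.838, exact permutation p = 0.0286). Hhip, a decoy receptor and hedgehog target, differed by -0.46 ± 0.52 (SE) and Lrp2, an endocytic receptor, by -0.69 ± 0.91. Both vary widely between mice and their differences were 0.015 and 0.020 without exposed mouse 4.

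The 18 intracellular transducers centred on 0 (median 0.021), with 1 higher at an unadjusted p under 0.05. This was Stk36, a kinase related to fly Fused (0.29 ± 0.11, SE). Btrc, an F-box protein that marks GLI proteins for processing, differed by 0.13 ± 0.078 without overlap between groups, and Gli3, the main repressor form of the GLI family, by -0.22 ± 0.15 (-0.12 without exposed mouse 4). Of 9 cilium genes, through which hedgehog signals pass, 7 had higher means and 2 were higher at an unadjusted p under 0.05. They were Bbs4, of the BBSome (6.90 ± 0.14 and 7.17 ± 0.10), and Rfx3, a transcription factor of ciliary genes (8.43 ± 0.097 and 8.76 ± 0.26). Both were without overlap between groups, as for 1.38% of the array in the higher direction, but only just. The highest sham and the lowest exposed value round to the same number, 7.03 for Bbs4 and 8.53 for Rfx3.

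Genes known to respond to hedgehog in other settings went both ways. Of 22, 13 had lower and 9 higher means, with 4 lower and 1 higher at an unadjusted p under 0.05 and a median of -0.11. Lower were Gas1, Ccnd2, a cyclin (-0.56 ± 0.21, SE), Snai1, a zinc finger repressor (-0.38 ± 0.14), and Grem1, a BMP antagonist that was dim at 3.72 and 3.45 (array median 7.08). Tbx3, a T-box factor, was higher (0.32 ± 0.13). Of the 22, 0 passed limma's adjustment (smallest adjusted p of the list 0.838). Gas1 is known as a gene that hedgehog holds down, whereas Ccnd2 and Snai1 are known as genes it raises.

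Of 15 stromal genes known downstream of COUP-TFII or HAND2, 11 had higher and 4 lower means, with 1 each way at an unadjusted p under 0.05 and a median of 0.097. Fgf9, one of the growth factors that HAND2 is known to hold down, read 5.84, 5.08, 5.77 and 5.76 in sham mice and 5.84, 6.45, 5.98 and 6.81 in exposed mice, highest in exposed mouse 4. Its difference was 0.65 ± 0.23 (SE, 1.57-fold, limma adjusted p = 0.838, exact permutation p = 0.0571). The other 4 fibroblast growth factors of the list, named after their values were seen, lay on both sides of 0. Fgf10 differed by 0.26 ± 0.18, Fgf18 by 0.14 ± 0.14, Fgf2 by -0.19 ± 0.19 and Fgf1 by -0.24 ± 0.24 (SE), and whether they differ from Fgf9 was not tested. Without exposed mouse 1, Fgf18 differed by 0.26 (limma unadjusted p = 0.0489), and Fgf1 was -0.029 without sham mouse 3 and Fgf2 -0.0018 without exposed mouse 4. Wnt4, a Wnt ligand of decidualizing stroma also named afterwards, differed by 0.097 ± 0.19, Ccl11, an eotaxin, by 0.44 ± 0.25 (0.19 without exposed mouse 2), and Angpt1, a vessel-stabilising ligand, by 0.28 ± 0.13. Fkbp5, a progesterone-induced chaperone, was lower (-0.65 ± 0.25, SE). Beside the Fgf9 difference of 0.65, that of Hand2 was 0.059.

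Of 16 factors known upstream of Ihh, 9 had higher and 7 lower means (median 0.03), and 0 reached an unadjusted p under 0.05 with limma. Pgr, the progesterone receptor, differed by 0.33 ± 0.20 (SE, 0.14 without exposed mouse 2), Ncoa3, a receptor coactivator, by 0.21 ± 0.10, Foxa2, a gland factor, by -0.25 ± 0.15 (-0.13 without exposed mouse 4), and Msx1, a homeobox factor, by -0.18 ± 0.12 (-0.076 without sham mouse 3). Among 11 paralogs of the transcription factors, 4 were higher and 7 lower (median -0.031), and 0 reached an unadjusted p under 0.05. Nr2f6 differed by -0.25 ± 0.14 (-0.11 without exposed mouse 4), Nr2f1, the closest relative of Nr2f2, by 0.098 ± 0.11, and Sox7, of the same subgroup as Sox17, by -0.13 ± 0.10 (-0.039 without sham mouse 4).

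**Figure D5:**
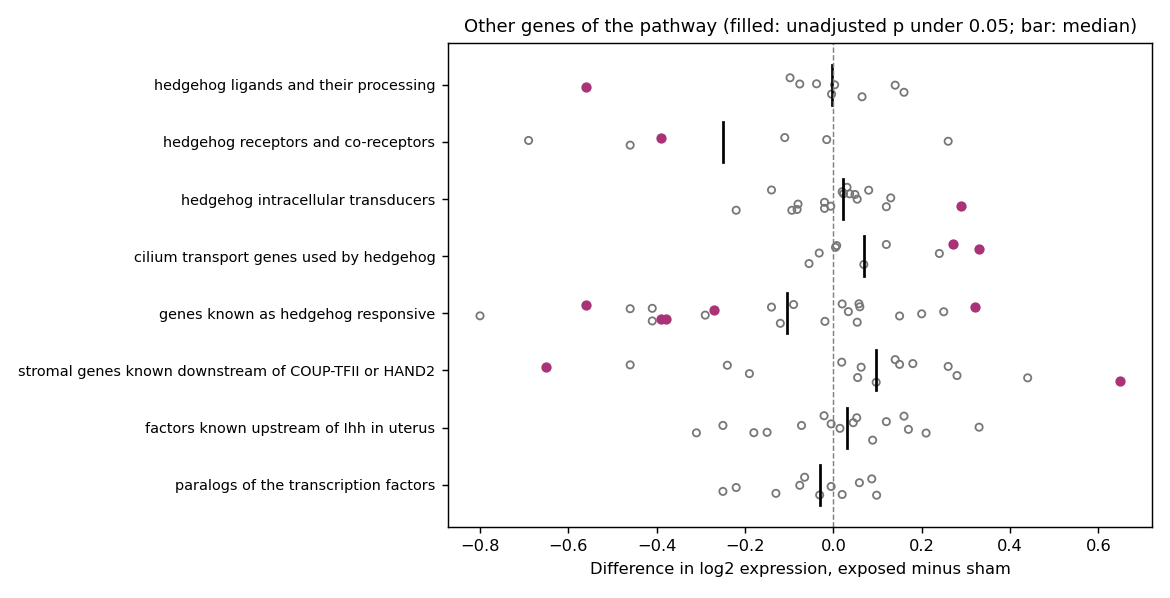
Difference in log2 expression, exposed minus sham (x axis), of each measured gene in the 8 pathway lists (rows), with filled points for an unadjusted p under 0.05 and a vertical bar for the median of the list. Medians run from -0.25 (receptors and co-receptors) to 0.097 (stromal genes downstream), and filled points lie on both sides of 0.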

How the data were processed

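Total RNA of 8 uteri was hybridised to 1 array each. The deposited table holds log2 expression of 22206 probe sets, a scale read from its range (2.75 to 13.64). The submitters' processing notes name Partek, without a version, and no source used here says how background, probe summary and scale were handled. Sorted columns differ by at most 0.0198, so the authors had brought the arrays to a common distribution, and a shift common to all genes is set to 0. Symbols came from the platform annotation (19572 probe sets with 1 symbol, 2634 with none).

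Group differences came from limma 3.58.1 (R 4.3.3) with no covariates and adjusted by Benjamini-Hochberg over all probe sets. On simulated arrays of 22206 probe sets the share of true changes found was 51.5% at 1.5-fold, 84.8% at 2-fold and 97% at 4-fold. The simulated noise was independent between probe sets and had the same SD in both groups. The wider spread of the members in exposed mice and the shared variation between genes were not simulated, so these shares may not hold for the members. Single values were also tested by exact permutation over 70 assignments. Named were all members, up to 4 genes of smallest p per pathway list, up to 3 brightest per marker list and the 3 genes most like each member. Members and lists were chosen with earlier results of these data known. Of the list genes, those not matched to a probe set were not analysed here. Same-numbered mice did not deviate together (correlations -0.24 to 0.08), so numbers were not treated as pairs. Alternatives changed scaling, filter, moderation, weights, block and mice.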

Additional observations from a re-analysis of the deposited data

Results flagged for a closer look

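The members and other named genes gave 78 groups of 4 mice, and in 5 of these a single mouse lay apart by Dixon's criterion; about 1 group in 20 would do so by chance. Sham mouse 3 stood above the other sham mice for Sox17 (9.52, others 9.21 to 9.25). Sham mouse 2 stood below them for Fgf9 (5.08, others 5.76 to 5.84). Sham mouse 4 was apart for Nr2f6 (7.84, others 8.07 to 8.11) and Sox7 (7.99, others 7.60 to 7.65). Exposed mouse 4 was apart for Nr2f6 (7.34, others 7.86 to 7.96). The low values of exposed mouse 4 for Sox17, Gata2 and Gli1 did not reach this threshold, as exposed mice 1 to 3 were themselves spread.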

How the results depend on the processing

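Over 144 limma refits of the 8 members, 139 kept direction and 5 did not, and 0 gave an adjusted p under 0.05 (smallest 0.302, Ihh without exposed mouse 1). Leaving out 1 mouse at a time gave -0.30 to 0.031 for Ptch1 and -0.026 to 0.065 for Nr2f2, and among other genes -0.95 to 0.015 for Hhip, -1.34 to 0.020 for Lrp2 and -0.043 to 0.28 for Wnt4. Correlations of Ihh then ran from -0.15 to 0.44 with Nr2f2 and from -0.41 to 0.31 with Hand2, and the number of pairs past adjustment from 0 to 7. Probe sets past adjustment numbered 0 to 1, those at an unadjusted p under 0.05 726 to 2545 (main 1203), other pathway genes 5 to 20 (main 11) and members 0 to 3 (main 1). Without exposed mice 2 and 4, differences were -0.010 for Nr2f2, -0.031 for Shh, 0.26 for Hhip, 0.95 for Lrp2, -0.26 for Wnt4 and -0.0027 for Nr2f1, with 5 other pathway genes and 0 members at an unadjusted p under 0.05. Relative to luminal markers, Gata2 was 0.036 (mean) and 0.070 (median) and Ihh 0.0032 (median). Without the 2 farthest mice, r of Ihh was -0.088 with Ptch1, -0.018 with Nr2f2 and 0.041 with Hand2, and 0 pairs passed, with 6 mice left. At the 50th percentile filter, 796 probe sets and 6 other pathway genes reached an unadjusted p under 0.05, fewer being tested. Without moderation, 5 other pathway genes and 0 members did. With the replicate block, 2 members did (Sox17 and Ihh), although the numbers do not pair the mice. For the remaining changes the cause was not tested.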
